A study of Mus musculus with 22 samples.

Results

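Open chromatin that lipopolysaccharide (LPS) uncovered in mouse macrophages, and that stayed detectable when lactic acid (LA) was present, is the subject here. Peaks of all 12 ATAC-seq samples that shared at least 1 bp were merged into 127890 sites. A site was selected on the measured peaks themselves: it held a peak in all 6 samples that received LPS (3 LPS, 3 LPS+LA) and in 0 of the 6 that did not (3 control, 3 LA). That rule chose 3453 sites, 2.70% of all sites, called kept sites below. Because peak presence chose them, their presence with LPS is a description and not a finding.

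All cells were bone marrow-derived macrophages (BMDMs) of C57/BL6 mice, grown for 7 days in medium with L929 supernatant, a source of macrophage growth factor. Control cells were untreated, and LPS cells received 100 ng/ml for 3 h. LPS+LA cells received the same LPS with 10 mM L-(+)-lactic acid, and LA cells received lactic acid alone, at a dose the labels do not state separately. RNA was measured in 2 libraries each of these 4 groups and of another group, LPS+HCl, in which hydrochloric acid lowered the medium (the labels give pH 6.5 as an example). ATAC-seq, which tags DNA that the Tn5 transposase can reach, used 50000 cells a sample. Whether replicates came from separate mice is not in the labels, so a p-value here measures how far these samples spread, and that spread may be technical only.

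LPS is a component of the outer membrane of Gram-negative bacteria and is sensed by Toll-like receptor 4. That receptor activates NF-kB, AP-1 and interferon regulatory factors, which bind promoters and, more often, distal enhancers of inflammatory genes. Many such enhancers are closed in resting macrophages and become accessible only after stimulation; accessibility and transcription of a nearby gene are separate measurements and need not move together.

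Few kept sites lay at gene starts, so the start windows that did lie under one are shown first. RefSeq start windows (GRCm38.p6, 300 bases, 250 before and 50 after the start) were compared with the sites; the table holds a window for 81.8% of the protein-coding genes on the chromosomes used. In all, 42 windows of 40 genes lay under 40 kept sites. Printed below, on the gene's strand, are the parts under a kept site for 2 genes named by rule, Il1a (interleukin 1 alpha) and Serpina3g (a serine protease inhibitor), and for 4 genes chosen after their letters were seen because they hold an AP-1 match. These are Ms4a14 (a membrane protein), Heatr9, Serpinb2 (plasminogen activator inhibitor 2) and Hamp (hepcidin, the iron-regulatory hormone). Capitals mark every match to AP-1 (TGANTCA) or NF-kB (GGAANNNCC, either strand).
Il1a, chr2:129309923-129310222, minus strand: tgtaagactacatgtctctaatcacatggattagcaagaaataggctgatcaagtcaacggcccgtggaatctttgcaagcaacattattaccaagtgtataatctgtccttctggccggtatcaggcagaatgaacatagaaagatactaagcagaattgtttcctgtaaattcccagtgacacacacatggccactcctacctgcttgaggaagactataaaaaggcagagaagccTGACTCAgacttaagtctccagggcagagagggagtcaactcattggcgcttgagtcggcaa
Serpina3g, chr12:104235897-104236196, plus strand: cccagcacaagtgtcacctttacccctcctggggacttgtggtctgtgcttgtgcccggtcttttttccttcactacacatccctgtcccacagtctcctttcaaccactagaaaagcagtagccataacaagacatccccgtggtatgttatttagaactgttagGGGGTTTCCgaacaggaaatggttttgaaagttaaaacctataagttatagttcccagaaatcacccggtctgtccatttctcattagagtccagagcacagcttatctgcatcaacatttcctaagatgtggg
Ms4a14, chr19:11314405-11314584, minus strand: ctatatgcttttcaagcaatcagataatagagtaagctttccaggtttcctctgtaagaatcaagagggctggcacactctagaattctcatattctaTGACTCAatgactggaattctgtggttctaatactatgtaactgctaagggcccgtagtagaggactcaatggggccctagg
Heatr9, chr11:83522119-83522349, minus strand: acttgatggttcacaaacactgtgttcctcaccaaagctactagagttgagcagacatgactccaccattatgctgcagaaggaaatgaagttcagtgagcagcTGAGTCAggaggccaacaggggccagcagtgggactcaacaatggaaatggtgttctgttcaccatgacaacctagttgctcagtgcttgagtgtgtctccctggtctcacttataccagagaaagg
Serpinb2, chr1:107511173-107511472, plus strand: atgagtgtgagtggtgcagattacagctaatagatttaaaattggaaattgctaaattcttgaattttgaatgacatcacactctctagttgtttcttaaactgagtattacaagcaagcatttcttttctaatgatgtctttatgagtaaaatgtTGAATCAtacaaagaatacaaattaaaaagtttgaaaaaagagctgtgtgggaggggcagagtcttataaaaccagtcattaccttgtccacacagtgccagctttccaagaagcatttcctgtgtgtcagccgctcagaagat
Hamp, chr7:30944074-30944279, minus strand: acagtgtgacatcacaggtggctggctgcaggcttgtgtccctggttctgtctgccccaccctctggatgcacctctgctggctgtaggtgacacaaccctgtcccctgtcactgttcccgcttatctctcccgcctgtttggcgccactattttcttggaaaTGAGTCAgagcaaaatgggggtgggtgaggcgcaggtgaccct

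The Il1a, Ms4a14, Heatr9, Serpinb2 and Hamp stretches each hold 1 AP-1 match, and the Serpina3g stretch holds 1 NF-kB match. Over whole windows, AP-1 letters were present in 13 of 42 windows under kept sites (31.0%), in 3 of 32 under sites that LPS opened but that were absent with LA (9.38%), in 5.20% of 12954 windows under sites open in all 12 samples, and in 7.81% of all 32851 windows. STAT letters (TTCNNNGAA) were in 11 of the 42 (26.2%), in 2 of the 32 (6.25%) and in 8.30% of all windows. NF-kB letters were about as frequent under both kinds of LPS-opened site, at 31.0% and 31.2%, against 18.5% of all windows. IRF letters (GAAANNGAA) were in 16.7% of windows under kept sites and in 28.1% of those under absent sites, against 8.56% of all. C/EBP letters (TTGCNNAA) were in 21.4%, 9.38% and 10.8%, and an E-box (CACGTG) was in 0 of the 42 windows and in 7.15% of all. Windows under kept sites held 47.0% G and C bases on average, against 61.5% under sites open in all samples and 53.8% over all windows, and the part of base composition in these shares was not tested. The windows are not independent, since Serpinb2 and Tnc have 2 overlapping windows each and both hold the same letters in the shared stretch. A match says that these letters are present and nothing about a bound factor.

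The samples carried limits that touch the results. Each sample had 76680 to 100667 peaks. File headers place control and LPS on sequencing lane 5, and LPS+LA and LA on lane 6, so lane and lactic acid cannot be told apart, while LPS against no LPS lies within each lane. Peak lists hold no read counts, so the depth of the ATAC samples is unknown. RNA libraries held 18668648 to 20219888 counts. Macrophage markers (10 genes) summed to 14121 to 20128 CPM (the usual library-scaled count, here with TMM) in every library. T, B, NK, mast, erythroid and fibroblast lists each summed to at most 2.11 CPM. Those sums rest on 3 of 5, 2 of 4, 1 of 3, 1 of 3, 2 of 4 and 4 of 4 listed genes, respectively. The other listed genes were not in the RNA data. Neutrophil markers reached at most 2.90 CPM and dendritic cell markers 4.74. The 8 neuron and glia markers summed to 29.5 to 66.6 CPM, of which Mbp made up 26.7 to 60.6. Without Mbp they reached 24.1 CPM in LPS+HCl replicate 2 and 11.0 in control replicate 1, against 2.11 to 5.01 in the other 8 libraries, and Snap25 was at 9.11 and 2.30 CPM in those 2. Their part in any result was not tested. Counts without both libraries are given below only for LPS+HCl against LPS and LA against control. Control replicate 1 also enters the other comparisons with control and the interaction. In bulk samples, fewer cells of a type and less RNA per cell cannot be told apart.

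LPS opened 7975 sites in the sense of a peak in 3 of 3 LPS samples and in 0 control and 0 LA samples. Of these, 3453 (43.3%) had a peak in all 3 LPS+LA samples, 1408 (17.7%) in 2, 1050 (13.2%) in 1 and 2064 (25.9%) in none. Full retention was thus the most frequent single outcome among these 4, as the bar plot of outcomes shows. Just outside the rule, 2054 sites had a peak in 5 of the 6 LPS-treated samples and in none of the others, and 1182 of these lacked one in LPS+LA replicate 1 alone. Their median score percentile, 24.4, lay below the 38.9 of the kept sites. A further 1179 sites had all 6 peaks and 1 peak in a sample without LPS.

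**Figure D1:**
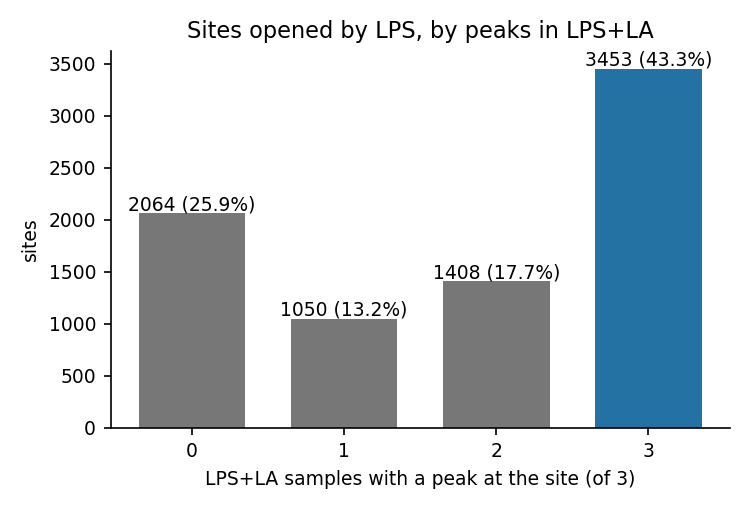
Number of sites opened by LPS (a peak in 3 LPS samples and in none of the control and LA samples; vertical axis) by the number of LPS+LA samples with a peak (horizontal axis). The blue bar, 3453 sites, is the kept set; 2064 sites had no peak in any LPS+LA sample.

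The score percentile ranks a peak by the authors' score among all peaks of its own sample, from 0 to 100. Kept sites were of middling rank. Their median percentiles were 47.5, 43.7 and 39.2 in the 3 LPS samples and 28.3, 40.8 and 40.0 in the 3 LPS+LA samples. LPS+LA replicate 1 stood lowest, and the other LPS+LA samples lay within the LPS range. The lists differ in length, so the rule was also applied to the 76680 highest peaks of each sample, equal lists. It then found 2281 sites, which overlapped 2003 (58.0%) of the kept sites, with medians of 43.6, 43.5 and 42.6 in LPS and of 30.5, 33.7 and 33.0 in LPS+LA. In those equal lists 1064 of the sites (46.6%) ranked lower in all 3 LPS+LA samples than in any LPS sample, 306 (13.4%) ranked higher, and 911 overlapped. The same split was not made for other sites, so these shares cannot be called a trait of kept sites. Rank is relative to the other peaks of a list and moves here with lane, so it shows no change in openness by itself.

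**Figure D2:**
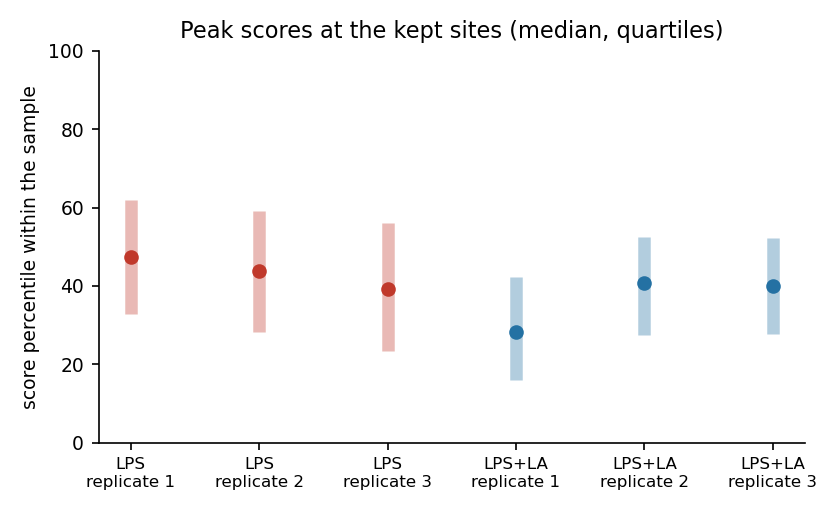
Score percentile of the peak at each of the 3453 kept sites, by sample (points, medians; bars, lower to upper quartile; vertical axis, percentile among all peaks of that sample). Medians run from 39.2 to 47.5 in LPS and from 28.3 to 40.8 in LPS+LA.

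Peak width was not used by the rule. Sample medians over the kept sites were 350 ± 46.6 bp in LPS and 293 ± 44.2 bp in LPS+LA (SD, n = 3 each), a difference of -57.0 bp. An exact two-sided permutation test gave p = 0.3, and 3 against 3 samples cannot go below 0.1. Over all peaks the same difference was -29.7 bp. Merged over samples, a kept site spanned a median of 428 bp, from 228 to 1980. Across kept sites the percentiles of 2 LPS samples correlated at 0.877 to 0.896 and those of 2 LPS+LA samples at 0.786 to 0.840, while an LPS and an LPS+LA sample correlated at 0.395 to 0.479. These are descriptions over 3453 sites within shared libraries, and lane differs in the last pairs.

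Kept sites were distal. Of the 3344 on chromosomes that the start table covers, 40 (1.20%) overlapped a listed start window, 63.5% lay within the bounds of a gene and 35.3% between genes. The sites that were absent with LA lay much alike, with 1.29% at a start window. Of sites open in all 12 samples 18.2% overlapped one, and of all sites 9.24%. Over the autosomes and X the share of sites that were kept ran from 2.14% on chromosome 7 to 3.45% on chromosome 16, and 0 of the few sites on Y and M were kept. Most kept sites were solitary: at a spacing of up to 10 kb, 3065 sites stood alone, and the others made up 177 pairs, 8 runs of 3 sites and 2 runs of 5 sites. The runs of 5 were at chr1:130989317-131015751, beside Il10, and at chr16:97546968-97569783, at Tmprss2, a membrane serine protease that was not among the tested genes.

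Of the 10 kept sites with the highest mean percentile, 9 had a gene of the RNA data within 50 kb. The other lay 86924 bp from the nearest protein-coding gene, Itga4. The first, chr16:15984145-15984760 inside Spidr (a DNA repair scaffold), stood at 91.8, 90.3 and 91.5 in LPS and at 88.6, 93.1 and 91.6 in LPS+LA. Spidr RNA was 23.5 and 25.1 CPM in LPS and 23.9 and 25.5 in LPS+LA, against 22.2 and 25.6 in control, with no call in any comparison. A site inside Usp18, an interferon-induced protease that dampens interferon signalling, stood at 91.0 to 93.7 in LPS and 83.2 to 88.1 in LPS+LA. Usp18 RNA fell from 675 and 671 CPM in LPS to 70.2 and 83.1 in LPS+LA (log2 -3.14 ± 0.09 SE, adjusted p = 1.06e-18). Traf1, an adaptor of tumour necrosis factor receptors, had a site at 85.3 to 88.1 in LPS and 84.6 to 85.8 in LPS+LA, and its RNA fell from 740 and 700 CPM to 135 and 142 (log2 -2.38 ± 0.07, adjusted p = 5.07e-18). Gna13, a G protein subunit, had a site 9077 bp away, and its RNA was not called different between LPS (511 and 537 CPM) and LPS+LA (531 and 532), with log2 0.02 ± 0.07 (adjusted p = 0.849). Of the remaining genes, Slc15a3, the distant Itga4, Vash1, Ccl5 and Slc4a7 rose with LPS and fell with LA added, while Aopep was called in neither comparison. In equal lists the sites at Usp18, Traf1 and Gna13 ranked lower in every LPS+LA sample than in any LPS sample. So did those at Itga4, Vash1, Aopep and Slc4a7, while those at Spidr, Slc15a3 and Ccl5 overlapped.

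Il10 encodes interleukin 10, the main anti-inflammatory cytokine of macrophages. Its 5 kept sites lay 4094 to 30115 bp from the gene. The one nearest to it, which was not among the sites of the equal lists, stood at the 34.8, 33.9 and 25.3 percentile in LPS and at 18.8, 3.94 and 21.6 in LPS+LA, without overlap. The central one, chr1:131002491-131002946, stood at 55.5, 52.0 and 48.6 and at 52.6, 52.7 and 58.7, with overlap. Il10 RNA was 0.283 and 0.681 CPM in control, 17.0 and 17.5 in LPS and 14.0 and 19.01 in LPS+LA. It rose with LPS (log2 5.14 ± 0.33, adjusted p = 5.04e-11), and LPS+LA against LPS gave log2 -0.07 ± 0.21 (adjusted p = 0.818). In LPS+HCl it was 22.6 and 28.8 CPM, log2 0.57 ± 0.21 above LPS (adjusted p = 0.0378), a call that was lost without LPS+HCl replicate 2 (log2 0.39), a library with neuronal transcripts, and also without either LPS replicate (log2 0.55 and 0.59). Of the 22 panel genes with a kept site, Il10 alone was not called lower in LPS+LA than in LPS, where 29.7% of all genes tested were called lower.

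The other panel cytokine genes near kept sites fell with lactic acid. Il1a had 2 kept sites, one over its start (sequence above) at 46.7, 37.3 and 50.3 in LPS and 42.4, 32.7 and 24.0 in LPS+LA. The other, stronger one, 1290 bp away, stood at 70.7, 65.2 and 57.3 and at 56.8, 70.5 and 69.1, with overlap. Il1a RNA was 2002 and 2023 CPM in LPS, 81.7 and 94.7 in LPS+LA and 486 and 582 in LPS+HCl (LPS+LA against LPS log2 -4.51 ± 0.10, adjusted p = 1.45e-17). Il12b encodes a subunit shared by interleukins that drive T helper responses. Its site, 13134 bp away, was among the weakest LPS peaks, at 4.24, 3.74 and 4.83, and stood at 27.5, 41.5 and 38.5 in LPS+LA. Its RNA was 765 and 705 CPM in LPS and 24.5 and 19.5 in LPS+LA (log2 -5.06 ± 0.14, adjusted p = 1.26e-13). That site, too, was not among the sites of the equal lists. Il1b, 39122 bp from its site, went from 3835 and 3748 CPM to 478 and 525 (log2 -2.92 ± 0.11, adjusted p = 1.12e-11), and Il27 from 1164 and 1155 to 124 and 149.5 (log2 -3.08 ± 0.11, adjusted p = 2.74e-13).

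Chemokine genes, whose products draw leukocytes into tissue, had several kept sites within 50 kb. Ccl5 had 5, of which those 22024 and 45990 bp away lay inside its neighbour Taf15. The one overlapping Ccl5, chr11:83530284-83530898, was one of the 10 strongest, at 87.4, 87.1 and 91.1 in LPS and 87.1, 90.5 and 88.5 in LPS+LA. Ccl5 RNA was 3435 and 3247 CPM in LPS and 776 and 769 in LPS+LA (log2 -2.11 ± 0.16, adjusted p = 6.07e-06), against 1.33 and 2.29 in control. A weaker site of the same run overlaps the start of Heatr9, a gene of unclear function printed above. It stood at 8.13, 2.46 and 3.89 in LPS and at 52.5, 60.8 and 58.8 in LPS+LA, and was not among the sites of the equal lists. Heatr9 RNA had 0 counts in control and LA, and was 7.97 and 8.13 CPM in LPS, 11.2 and 9.48 in LPS+LA and 13.6 and 14.2 in LPS+HCl. It was at least 133-fold higher in LPS than the floor of 3 counts over the control group, and LPS+LA against LPS was not called (log2 0.36 ± 0.21, adjusted p = 0.142). Cxcl1 and Cxcl2, neutrophil chemokines, shared 1 site that ranked higher in all 3 LPS+LA samples than in any LPS sample in equal lists, and both fell (log2 -3.52 and -4.43). Cxcl10, an interferon-inducible chemokine, fell too (log2 -1.11, adjusted p = 0.00676), from 14360 and 14514 CPM to 6808 and 6556.

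Nos2, inducible nitric oxide synthase, had the largest fall among the 22 panel genes with a kept site. A kept site within the gene stood at 57.4, 52.9 and 56.8 in LPS and 32.5, 25.6 and 30.1 in LPS+LA, without overlap. Nos2 RNA fell from 1832 and 1936 CPM in LPS to 13.0 and 21.3 in LPS+LA (log2 -6.78 ± 0.17, adjusted p = 3.33e-11) and stood at 505 and 484 in LPS+HCl. Sod2, mitochondrial superoxide dismutase, had a site 8295 bp away at 73.4, 72.2 and 66.8 in LPS and 10.8, 29.3 and 37.3 in LPS+LA. That site lay nearer to another gene, Wtap, at 6554 bp. Sod2 RNA fell from 800 and 797 CPM to 244 and 242 (log2 -1.71 ± 0.07, adjusted p = 5.15e-16). Acod1, which makes itaconate, and Slc7a2, an arginine transporter, fell as well (log2 -1.76 and -2.67).

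Feedback inhibitors and interferon regulatory factors also fell. Nfkbia encodes the inhibitor that holds NF-kB in the cytoplasm. Its site, 24174 bp away, stood at 33.1, 42.6 and 48.4 in LPS and at 53.7, 65.1 and 60.5 in LPS+LA, without overlap. Nfkbia RNA was 61.0 and 67.9 CPM in control, 2409 and 2319 in LPS and 1597 and 1563 in LPS+LA (LPS+LA against LPS log2 -0.58 ± 0.07, adjusted p = 6.23e-08). Tnfaip3, the ubiquitin-editing inhibitor A20, had 3 kept sites and a log2 difference of -1.35. Irf1 (2 sites) stood at -1.09, the NF-kB subunit Rel at -1.69 and Irf8 (2 sites) at -1.42, all called lower. The 2 sites of Irf8, a factor of macrophage identity, differed. One stood at 76.2, 76.2 and 78.5 in LPS and 40.7, 61.4 and 53.8 in LPS+LA, and the other at 36.4, 19.1 and 7.48 and at 43.3, 55.0 and 53.2. In equal lists the Nfkbia site ranked higher in every LPS+LA sample than in any LPS sample, the first-named Irf8 site, the Nos2 site and the Sod2 site ranked lower, and the second Irf8 site was absent. Irf8 RNA was 822 and 892 CPM in LPS, 307 and 334 in LPS+LA and 859 and 805 in LPS+HCl. The 3 sites assigned to Stat5a lay inside its neighbour Stat3, which fell (log2 -1.46), while Stat5a stood at -2.25.

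**Figure D3:**
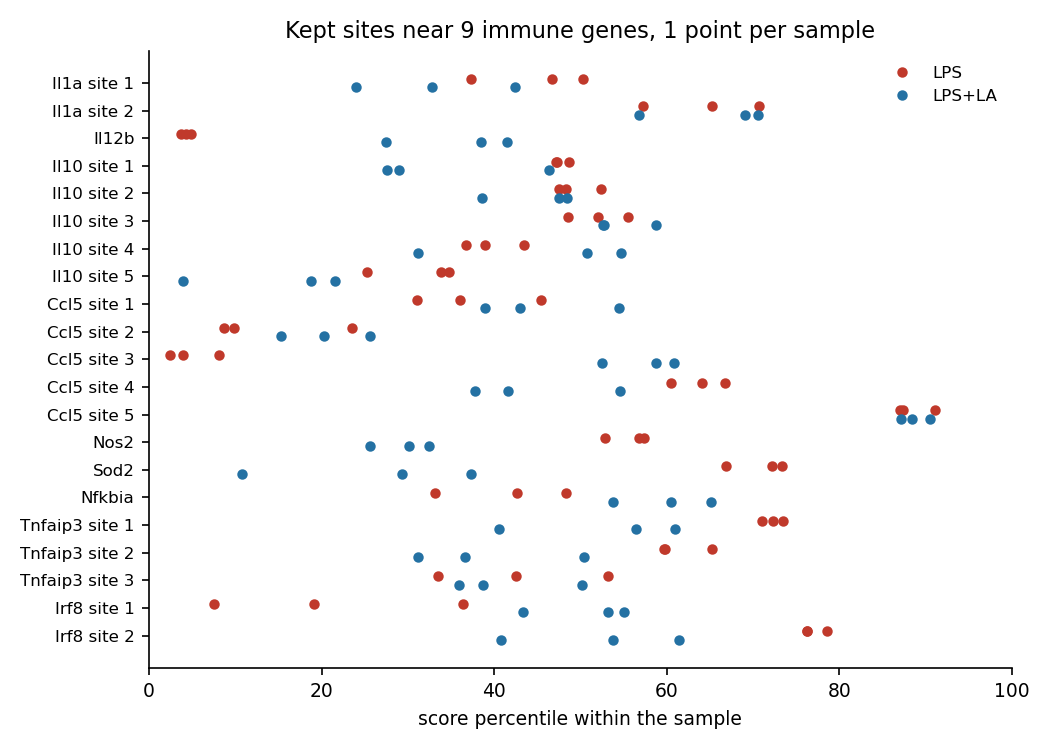
Score percentile (horizontal axis) of each kept site near 9 immune genes, 1 point per sample; sites of a gene are numbered along the chromosome. The Nos2 and Sod2 sites stand lower in LPS+LA (blue) than in LPS (red), the Nfkbia and Il12b sites higher, and at site 5 of Ccl5 the groups overlap.

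Neighbouring RNA was compared with that of all genes. A neighbour is a tested gene whose bounds lie within 50 kb of a kept site: 3684 of 12165 tested genes with a position, for 2821 of the 3453 sites. A call is an adjusted p below 0.05 in edgeR's quasi-likelihood test, adjusted by Benjamini-Hochberg over 12213 genes. With LPS against control, 1647 neighbours (44.7%) rose and 960 (26.1%) fell, where 32.4% of all genes tested rose and 32.4% fell. With LPS+LA against control, 1241 (33.7%) were higher and 808 (21.9%) lower, against 26.4% and 24.9% of all genes. With LPS+LA against LPS, 917 (24.9%) were higher and 1481 (40.2%) lower, against 29.2% and 29.7%. Median log2 differences of neighbours were 0.19, 0.08 and -0.13 in these 3 comparisons, beside -0.05, -0.02 and 0.03 over all genes. These comparisons share libraries and are not independent of each other. Of the neighbours, 982 also had a site absent with LA within 50 kb. In LPS+LA against LPS, 51.9% of those were lower and 18.7% higher. The 2702 without such a site were at 35.9% and 27.1%. The 1406 genes with an absent site and no kept site were at 33.1% and 27.9%. The part of the absent sites was not tested. Neighbours were also longer (median 30632 against 23213 bp) and more expressed (32.7 against 23.7 CPM) than all genes, and the part of either was not tested.

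The level depends on how libraries are scaled. The lowest TMM factor, 0.759, belonged to an LPS library and the highest, 1.27, to a control library. Scaling by total counts instead moved the median log2 of all genes by -0.72 in LPS against control, by -0.32 in LPS+LA against control and by 0.40 in LPS+LA against LPS. Calls among neighbours then became 906 higher and 2114 lower, 785 higher and 1546 lower, and 1632 higher and 969 lower, respectively. For all genes they became 14.4% and 67.9%, 14.0% and 46.9%, and 50.8% and 16.6%. Under both scalings the neighbours had a larger share of genes higher with LPS than all genes had. They also had a larger share lower in LPS+LA than in LPS. The sign of the typical neighbour flipped in LPS against control, from 0.19 to -0.53, and in LPS+LA against control, from 0.08 to -0.24. It also flipped in LPS+LA against LPS, from -0.13 to 0.26.

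Shares were larger for genes with more kept sites. With 1, 2 and 3 or more sites, 39.8%, 53.2% and 71.1% of neighbours rose with LPS, against 27.1% of genes with none. Over the same bins 35.4%, 48.7% and 65.5% were lower in LPS+LA than in LPS, against 25.1%. Genes with more sites were longer, at medians of 27.5, 38.0 and 85.1 kb. Genes that contain a kept site rose with LPS at 55.0%, those 1 bp to 10 kb away at 47.2%, those 10 to 50 kb away at 36.5% and those beyond 100 kb at 26.0%. Of the 1647 neighbours raised by LPS, 1281 (77.8%) were lower in LPS+LA than in LPS and 89 were higher, beside 71.4% lower of all 3963 genes that LPS raised. Of the same 1647, 996 (60.5%) were still above control in LPS+LA, beside 58.3%. Both sets were chosen for high values in the LPS libraries, which LPS+LA against LPS uses again, so falls were favoured by the choice. The comparison with control likewise uses the control libraries again. These shares were counted with TMM scaling only.

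**Figure D4:**
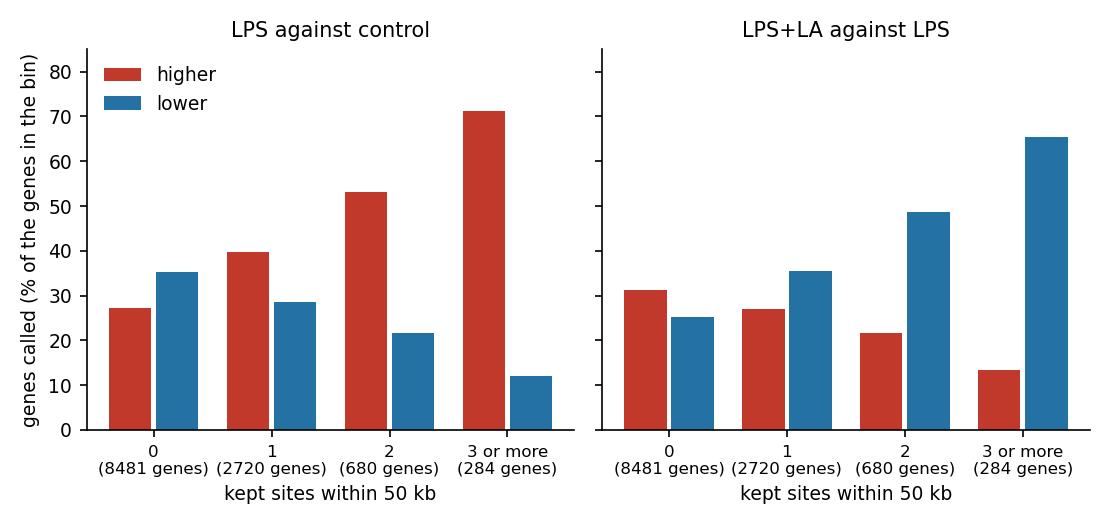
Percentage of tested genes called higher (red) or lower (blue) by number of kept sites within 50 kb, for LPS against control (left) and LPS+LA against LPS (right), with TMM scaling. Higher calls with LPS run from 27.1% with no site to 71.1% with 3 or more, and lower calls with LA added from 25.1% to 65.5%.

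Lactic acid alone and HCl gave smaller differences. With total-count scaling the median log2 of all genes moved by -0.11 for LA against control, 0.24 for LPS+HCl against LPS and 0.51 for the interaction described last. With LA against control, 784 neighbours (21.3%) were higher and 737 (20.0%) lower, against 20.4% and 17.9% of all genes, shares near the background. Total-count scaling gave 564 (15.3%) and 1035 (28.1%), against 14.1% and 25.1%. With LPS+HCl against LPS, 623 (16.9%) were higher and 1074 (29.2%) lower, against 18% and 20.8%, and total-count scaling gave 1268 (34.4%) higher and 615 (16.7%) lower, against 37.1% and 10.7%. Without the 2 libraries with neuronal transcripts, LPS+HCl against LPS gave 471 and 857 and LA against control 574 and 526. No share of all genes stands beside these counts, so they do not show whether neighbours still differed from all genes. The difference between the LA effect with LPS and the LA effect without it was tested as an interaction: 658 neighbours (17.9%) had a higher and 1247 (33.8%) a lower value, against 20.4% and 23.9% of all genes. Total-count scaling gave 1570 and 673, against 48.4% and 10.6%.

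Gene lists of macrophage activation, chosen with earlier results of these data known, were read for members near a kept site. Of all tested genes with a position 30.3% had one. The counts below stand beside 32.4% of all genes tested higher and 32.4% lower with LPS, and 29.2% higher and 29.7% lower in LPS+LA against LPS. With total-count scaling these shares are 14.4%, 67.9%, 50.8% and 16.6%. Inflammatory cytokines had one in 11 of 20 genes. All 11 rose with LPS, and in LPS+LA against LPS 9 were lower and 1 higher (median log2 -3.08, beside 0.03 over all genes). The one that rose further was Tnfsf9 (4-1BB ligand, a costimulatory cytokine), by 2.36 on the log2 scale (adjusted p = 1e-17), and it was named after its value was seen. Chemokines had a site in 11 of 15 genes, and all 11 rose with LPS and fell with LA added (median -3.25), from Cxcl10 at -1.11 to Cxcl9 at -6.16. With total-count scaling 10 of them remained lower, and Ccl4 (log2 -0.99, adjusted p = 0.0521) was not called.

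Interferon-response genes had a site in 17 of 29, and all 17 rose with LPS and fell with LA added (median -1.82). Among them were the antiviral genes Ifit1, at -1.44, and Rsad2, at -2.50. Total-count scaling gave 16 lower, the exception being Trim25. NF-kB subunits and feedback genes had a site in 13 of 27. Of these 12 rose with LPS, and 13 fell with LA added (median -1.12), or 11 with total-count scaling, where Trib1 and Zfp36 lost their call. Effector and metabolic genes had a site in 9 of 20 and fell in 9 cases, or in 8 with total-count scaling, where Hif1a lost its call. Costimulation, adhesion and receptor genes had one in 10 of 21 and fell in 10 under both scalings. Examples were Cd86 (-1.39), Vcam1 (-2.48) and the formyl peptide receptor Fpr1 (-5.30).

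Transcription factors of activation were mixed. A site lay near 11 of 25, with 5 lower and 3 higher in LPS+LA than in LPS, or 4 and 4 with total-count scaling. The AP-1 subunit genes Fos and Fosl1 rose by 3.16 and 1.90, and Runx1, a haematopoietic factor, rose by 1.04, while Fos and Runx1 had fallen with LPS alone. Another AP-1 family gene, Batf, fell (log2 -1.88), as did Spi1, which encodes the macrophage factor PU.1 (log2 -0.98). Cell cycle genes had a site in 7 of 20, and all 7 were lower with LPS and higher in LPS+LA than in LPS (median log2 0.55), under both scalings, where 32.4% and 29.2% of all genes did so with TMM and 67.9% and 50.8% with total counts. Reference genes also lay near kept sites, 7 of 12, with 4 lower and 2 higher in LPS+LA than in LPS, or 2 and 3 with total-count scaling, beside 29.7% lower and 29.2% higher of all genes with TMM and 16.6% and 50.8% with total counts.

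Of the genes with the most kept sites, 11 had at least 6, and the 5 named by rule (ties broken by name) were all long, while Taf15, with 6, spans 33.7 kb. Dock10, a guanine nucleotide exchange factor, had 10 within 50 kb and 257.7 kb of gene. Its RNA was 186 and 185 CPM in control, 822 and 870 in LPS and 185 and 198 in LPS+LA. It rose with LPS (log2 2.19 ± 0.07, adjusted p = 1.33e-18) and fell with LA added (log2 -2.14 ± 0.07, adjusted p = 1.15e-17). Akap13, an anchoring protein with 6 sites, rose by 1.51 with LPS, and its difference of -0.35 between LPS+LA and LPS became 0.05 with total-count scaling. Camk2d, a calcium-dependent kinase (6 sites), rose by 0.76 and stood at -0.67 in LPS+LA against LPS, and its rise was 0.04 with total-count scaling. Aopep, an aminopeptidase (6 sites), was called in neither comparison, and Cacna1d, a calcium channel (6 sites), was lower with LPS (log2 -0.48, adjusted p = 0.0413), a call lost without control replicate 2 (log2 -0.30), without either LPS replicate (log2 -0.45 and -0.52) and in DESeq2 (log2 -0.45).

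Some neighbours moved the other way. Lyl1, a haematopoietic transcription factor, was 106 and 114.5 CPM in control, 1.88 and 1.52 in LPS and 65.2 and 68.4 in LPS+LA. It fell with LPS and rose with LA added (log2 5.29 ± 0.16, adjusted p = 2.82e-18), although its kept site opened with LPS. Fam214a, Arl4c (a small GTPase), 1700017B05Rik and Tmem86a (a lysoplasmalogenase relative) likewise fell with LPS and rose by 4.51, 4.42, 4.27 and 4.02. The 5 largest falls were Serpina3g, Nos2, Serpina3f, Cxcl9 and Col27a1, at log2 -7.68, -6.78, -6.76, -6.16 and -5.86. Serpina3g RNA was 140 and 157 CPM in LPS, 0.375 and 1.05 in LPS+LA and 18.8 and 16.5 in LPS+HCl. Its levels in LPS+LA and control were not called different (adjusted p = 0.0968). Serpina3f and Serpina3g belong to a cluster of similar genes, so their counts are uncertain where reads fit several.

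Of the 40 genes with a start window under a kept site, 21 were in the RNA table and 16 were tested. Of these 16, 15 rose with LPS, 13 were lower in LPS+LA than in LPS, and 1, Adh5, was higher, beside 32.4%, 29.7% and 29.2% of all genes tested. Serpinb2, Il19, Heatr9, Serpina3i and Klrk1 had 0 control counts and passed the filter on low counts through the groups where they are high, so the counts describe the genes that passed and support nothing about all 40. Lcn2, the iron-binding protein lipocalin 2, was 31.9 and 26.9 CPM in LPS and 2.14 and 0.948 in LPS+LA. Sema4a, a semaphorin, was 154 and 155 CPM in LPS, 79.4 and 87.1 in LPS+LA and 175 and 188 in LPS+HCl.

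**Figure D5:**
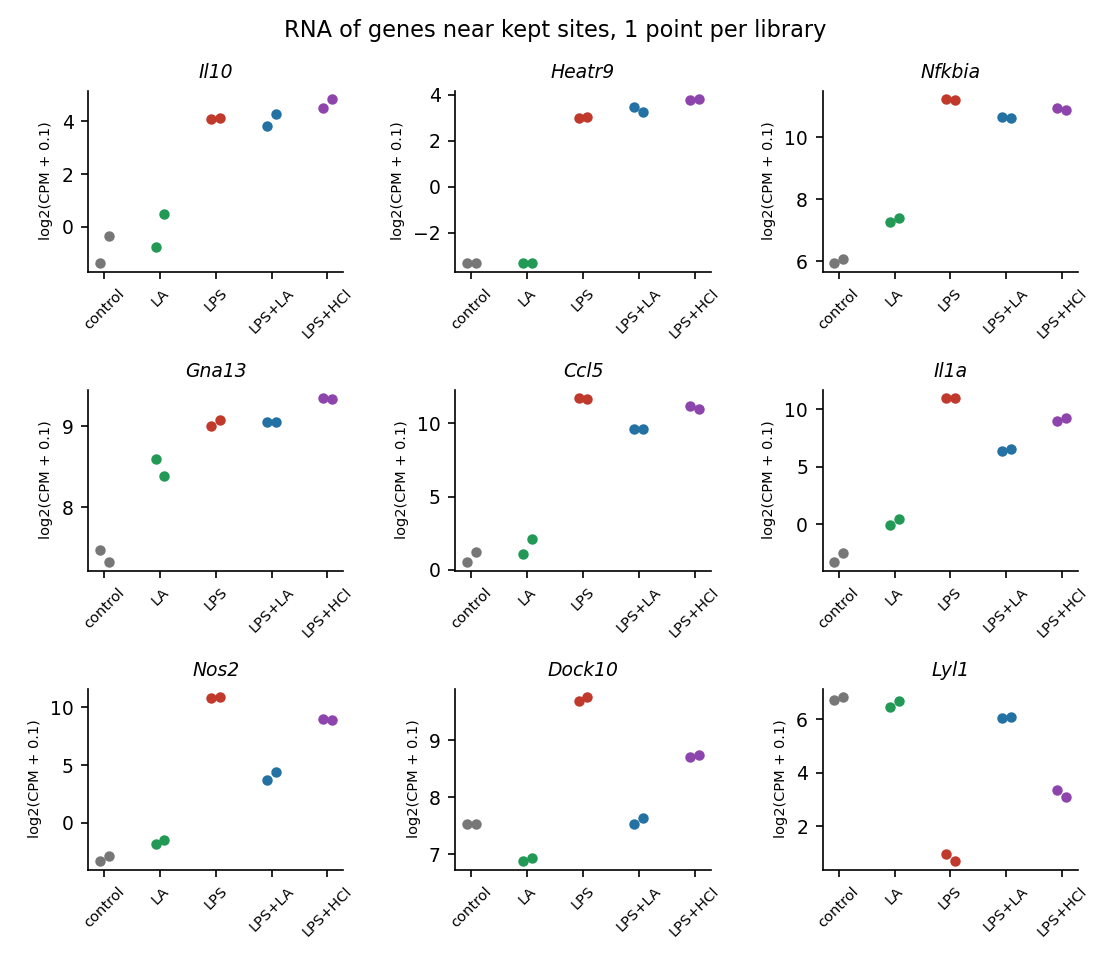
RNA level, log2(CPM + 0.1) (vertical axes, each with its own range), of 9 genes near kept sites in each of the 10 libraries (points). Il10, Heatr9 and Gna13 stand close in LPS and LPS+LA, Nos2 and Il1a fall far below LPS when LA is added, and Lyl1 runs the other way.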

How the data were processed

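ATAC peaks of 12 samples (4 groups of 3) and RNA of 10 libraries (5 groups of 2) were analysed. Per the submitters' processing notes, ATAC reads were handled with BWA 0.5.9, Picard and MACS2 2.0.10 on mm10/GRCm38, and RNA reads with HISAT and Bowtie2 on GRCm38.p6, with no parameters named. The authors deposited 1 peak list a sample with a score per peak, the authors' own value, whose statistic no header or label names, and it served only to rank peaks within a list. For RNA the authors deposited expected counts, FPKM and TPM per gene, of which only the first were tested.

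Peaks sharing at least 1 bp were merged with pandas 2.3.3. Of the expected counts, 6.07% were not whole and were rounded. A low-count filter (filterByExpr, counts of at least 10, and 15 in total) passed 12213 of 16059 genes. The counts were TMM-scaled and tested with edgeR 4.0.16 (quasi-likelihood, limma 3.58.1, R 4.3.3) in 1 model over the 5 groups, and a call is a Benjamini-Hochberg adjusted p below 0.05 over all tested genes. CPM values are on the TMM scale. Alternatives were DESeq2 1.42.0, other scalings, filters, distances and rules, and each library left out in turn. On simulated counts for LPS+LA against LPS (11885 genes), the test recovered 39 of 50 genes changed by 0.5 on the log2 scale, 49 of 50 at 1 and all 50 at 2 and at 3, and 11 of its 199 calls were false. Only those genes were changed there, none of them of low level, and each gene had otherwise the same mean in every group. In the data 29.2% of genes were called higher and 29.7% lower, so these rates may not carry over.

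Genes were named if they were panel genes with a kept site within 50 kb, the 5 genes with the most kept sites (ties broken by name), or the 5 largest rises and falls in LPS+LA against LPS among neighbours that reached 10 CPM in either group and whose groups did not overlap. Sites were named if they had one of the 10 highest mean percentiles or belonged to a panel gene. Heatr9, Stat3, the genes at start windows and the list members named were chosen after their values were seen. The members, panel, lists and rules were chosen with earlier results of these data known. The planned 300 bases around kept sites were not used here; RefSeq start windows were printed in their place.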

Additional observations from a re-analysis of the deposited data

Results flagged for a closer look

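Of the 36 named genes near kept sites, 33 had an effect of lactic acid that differed between cells with and without LPS. The test was edgeR's interaction term (adjusted p below 0.05). Of all genes tested, 20.4% had a higher and 23.9% a lower value by that term. The genes were named with earlier results known or by their values, so the count describes them and not genes near kept sites at large. Values are the log2 effect of LA with LPS minus that without LPS. Among cytokines and chemokines they were -9.00 for Il1a, -6.42 for Il1b, -8.83 for Il12b, -4.88 for Il27, -2.92 for Ccl5, -3.95 for Ccl22, -5.03 for Cxcl1, -4.56 for Cxcl2, -3.06 for Cxcl10 and -4.43 for Cxcl9. Among effectors and receptors they were -9.88 for Nos2, -2.69 for Slc7a2, -1.69 for Sod2, -1.82 for Cd80 and -3.38 for Marco. Among regulators they were -1.91 for Nfkbia, -1.98 for Tnfaip3, -2.29 for Rel, -1.45 for Irf1, -1.94 for Irf8 and -2.03 for Stat5a.

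The genes with the most kept sites gave -1.51 for Dock10, -0.61 for Akap13, 0.40 for Aopep and -0.58 for Camk2d. With total-count scaling Akap13 and Camk2d stood at -0.10 and -0.06 and, like Cxcl9 below, were no longer called. The largest rises gave 5.49 for Lyl1, 4.32 for Fam214a, 3.45 for Arl4c, 3.04 for 1700017B05Rik and 4.24 for Tmem86a. The remaining falls gave -5.89 for Serpina3g, -7.29 for Serpina3f and -4.93 for Col27a1. Rises and falls were chosen by LPS+LA against LPS, which is part of the interaction. Large values of the same sign were therefore favoured by the choice and are a description only. Il1a, Il12b and Nos2 had 2, 1 and 1 counts in the control group and Cxcl9 had 2 in the LA group, so their fitted values depend on the prior count. Without LA replicate 1 the calls of Serpina3g (-5.00), Cxcl9 (-1.45) and Aopep (0.30) were lost, and without LA replicate 2 that of Serpina3f (-2.44). The Cxcl9 call was also lost with total-count scaling (-3.91), without control replicate 1 (-4.13) and without both libraries with neuronal transcripts (-4.13).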

How the results depend on the processing

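Counts below are genes near kept sites, higher then lower. Within 10 kb they were 989 and 427 for LPS against control, 689 and 410 for LPS+LA against control, 398 and 931 for LPS+LA against LPS, 359 and 452 for LA against control and 319 and 658 for LPS+HCl against LPS. With the nearest gene only they were 1082 and 480, 764 and 489, 444 higher, 410 and 491, and 357 higher in the same order. Within 100 kb, LPS against control gave 1502 lower, and LPS+LA against LPS and LPS+HCl against LPS gave 1437 and 951 higher. Fewer or more genes lie within these distances, so the counts do not show whether the shares moved. By distance, 54.4% of genes that contain a kept site were lower in LPS+LA than in LPS and 18.6% higher. Those 1 bp to 10 kb away were at 38.3% and 27.1%, and those 10 to 50 kb away at 30.5% and 28.8%. Of all genes tested, 29.7% were lower and 29.2% higher. Total-count scaling gave 906 and 2114, 785 and 1546, and 1632 and 969 for the first 3 comparisons, 1268 and 615 for LPS+HCl against LPS and 1570 and 673 for the interaction. It also reversed Irf8 in LPS+HCl against LPS (0.19), Dock10 and Camk2d in LPS+LA against control (-0.27 and -0.23) and Akap13 in LPS+LA against LPS (0.05).

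The rule gave 6185 sites with at least 2 of 3 samples of each LPS group and 2281 with equal numbers of peaks. Leaving out 1 ATAC sample gave 3530 to 4635 sites, the most without LPS+LA replicate 1. Neighbours of those 4635 sites, counted after the data were seen, gave 1947 and 1186 for LPS against control and 1111 and 1761 for LPS+LA against LPS. The number of neighbours differs there, so these counts do not show whether the shares moved. Leaving out the lowest 25% of peaks gave 2953 sites, which overlapped 40.4% of the kept sites.

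Leaving out 1 RNA library gave 1528 to 1676 and 802 to 976 for LPS against control, 1097 to 1277 and 641 to 847 for LPS+LA against control, 752 to 936 and 1310 to 1511 for LPS+LA against LPS, 619 to 793 and 573 to 762 for LA against control, 424 to 666 and 852 to 1137 for LPS+HCl against LPS, and 538 to 645 and 1079 to 1230 for the interaction. No share of all genes stands beside these ranges, so they do not show whether neighbours differed from all genes in each setting. The width difference ranged from -81.0 to -31.5 bp when 1 ATAC sample was left out.

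Same-numbered libraries deviated together at correlations of -0.50 to 0.05, so the numbers do not pair them. A replicate block gave 1641 and 951, 1234 and 800, 914 and 1470, 778 and 735, 615 and 1064, and 660 and 1240 in the order of the preceding paragraph, and a width difference of -57.0 bp (exact sign-flip p = 0.5). No count moved by over 1.5 times under it. Shares of all genes under the block are not given, so its counts, too, make no comparison with all genes.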
